A study of Talaromyces verruculosus with 6 samples.

Results

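Divergent neighbours are 2 consecutive genes that are read away from each other, so that the stretch between them holds the starts of both. In the annotation of the filamentous fungus Talaromyces verruculosus strain TS63-9 as listed in the files, 1603 pairs of consecutive genes on 1 contig had the left gene on the minus strand, the right gene on the plus strand and at most 1000 bases between them. They were chosen by position alone, from 11040 neighbouring pairs, and hold 3206 of the 11326 annotated genes (28.3%). A gene can belong to only 1 such pair. Same-strand neighbours at the same distance, of which there were 2208 pairs with 3928 genes, served for comparison. In these, the start of 1 gene faces the end of the other, 488 genes sit in 2 pairs, and 649 genes also belong to a divergent pair, so the groups overlap. The left gene is the one at the lower coordinate.

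A shared start region can carry binding sites that act on both genes, and is then called a bidirectional promoter. In filamentous fungi, known divergent pairs include the nitrite and nitrate reductase genes niiA and niaD and the penicillin genes acvA and ipnA of Aspergillus nidulans, whose partners work in 1 pathway. A shared start region does not by itself give a common response, since each gene also has its own core promoter.

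Actively growing mycelia were placed in basic medium with 5 g/L pectin, a plant cell wall polysaccharide rich in galacturonic acid, (3 libraries) or without it (3 control libraries), and were collected after 24 h. All 6 come from the same strain, and the design text calls them biological replicates without saying more on how separate the cultures were, so p-values measure the spread between these libraries. Messenger RNA was counted per gene, with 10320372 to 11393959 reads on annotated exons per library and reads found for 10394 to 10548 genes. Mycelium is a bulk sample, so fewer expressing cells and less RNA per cell cannot be told apart, and its identity could not be checked against markers because the locus tags come without gene names or products here. For that reason pairs are given by contig and by the first and last base between the partners, and tags are printed for only 4 genes. No source used here names the genome build.

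The annotated models hold coding sequence only (100% of lengths are multiples of 3), so the distance between divergent partners runs from 1 annotated coding start to the other and includes both untranslated leaders. It was 60 to 1000 bases, with a median of 560 and quartiles of 397.5 and 764. Same-strand gaps up to the same limit had a median of 634. Among all 3170 divergent neighbours at any distance the median was 985, so the limit of 1000 takes about as many as it leaves. The pairs lay on 152 of 286 contigs, up to 83 on 1 contig. Genes of divergent pairs had a median coding length of 1272 bp beside 1284 bp for all genes and a median of 3 exons in both, and 18.2% of them had a single exon beside 22.1% of all genes. Coding lengths of the partners were unrelated (Spearman's rho = 0.0060 over 1257 pairs, as a description).

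Over all pairs up to 1000 bases, divergent partners had more similar levels than same-strand partners did, but not among pairs up to 250 bases apart. Both genes passed the filter on low counts in 1257 divergent pairs, 1 of them in 183 and neither in 163, and the 163 had no gene above a mean of 2.00 RPKM (reads scaled to exon length and library size, the authors' values). Of the 509 genes of divergent pairs that the filter left out, 326 (64.0%) had a partner that was also left out, where 19.0% of all genes were left out; for same-strand pairs the share was 40.7%. At the other end, 283 genes of divergent pairs were in the top 10% of all genes by mean RPKM (from 85.0 RPKM), and 76 of them (26.9%) had a partner in the top 10%, beside 15.1% in same-strand pairs. Between the 1257 pairs of tested partners the median difference in mean level was 2.58-fold, and 149 pairs (11.9%) differed by more than 10-fold. In the 1644 same-strand pairs these values were 3.35-fold and 23.8%. Up to 250 bases the median difference was 2.36-fold in 79 divergent and 1.81-fold in 47 same-strand pairs, and Spearman's rho of the mean levels was 0.276 and 0.521.

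This likeness was present in every library. For divergent pairs, Spearman's rho of the partners' RPKM in controls 1 to 3 was 0.368, 0.451 and 0.440, and the pectin libraries had 0.366, 0.401 and 0.428. For same-strand pairs it was 0.208 to 0.246. Mean rho for divergent pairs was 0.420 ± 0.0449 without pectin and 0.398 ± 0.0313 with it (SD, n = 3 each), which did not differ beyond the spread of libraries (exact permutation test, two-sided p = 0.5, where 3 against 3 cannot go below 0.1). These correlations are across pairs that share their libraries, so they describe the pairs and carry no p.

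Partners also moved together between cultures of the same treatment, a measure that does not use the contrast with pectin. The difference in log2 CPM (reads scaled to library size) between 2 libraries of a group was compared between partners. For divergent pairs rho was 0.336 for controls 1 and 2, 0.350 for controls 1 and 3 and 0.245 for controls 2 and 3, and among pectin libraries it ran from 0.220 to 0.273. For same-strand pairs the 6 values ran from 0.0946 to 0.190, below the divergent value in each of the 6 comparisons. Control 1 was farther from the other controls than these were from each other (chi-square per degree of freedom of 135 for controls 1 and 2 and 33.9 for controls 2 and 3), and both values that include it were the highest, while the part of control 1 in them was not tested. Among pairs up to 250 bases apart the order was not the same, with medians over the 6 comparisons of 0.157 for divergent and 0.255 for same-strand pairs.

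**Figure D1:**
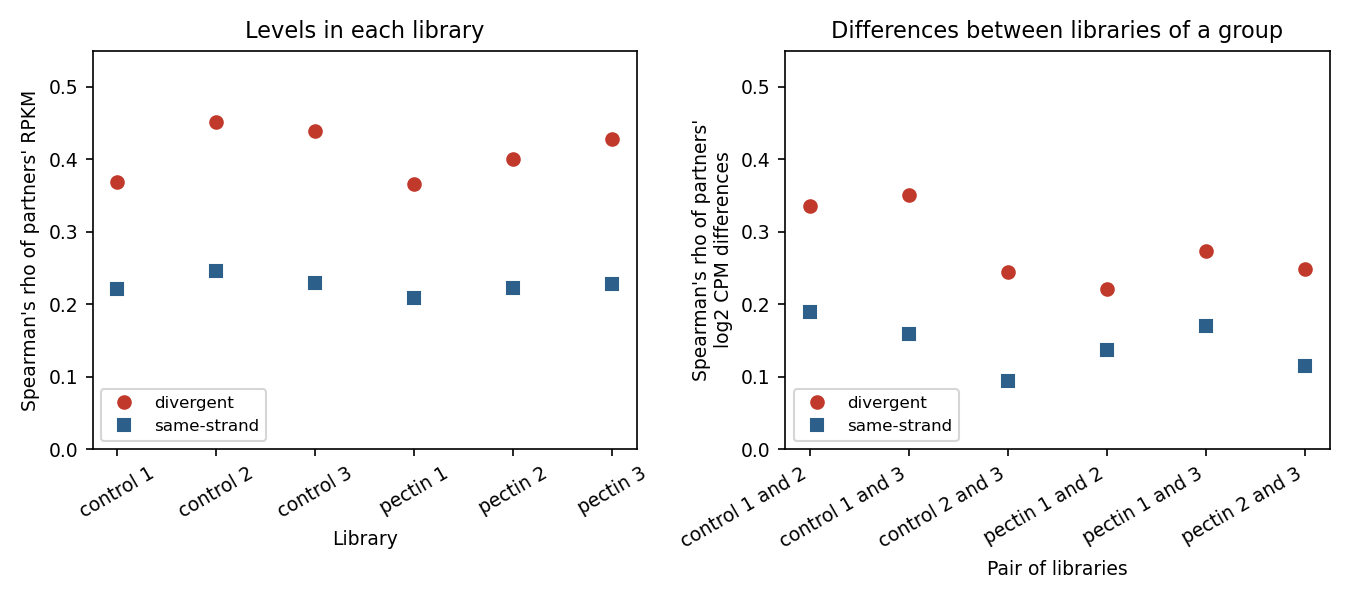
Likeness of neighbouring partners, as Spearman's rho across pairs (1257 divergent, 1644 same-strand), for the RPKM within each of the 6 libraries (left) and for the difference in log2 CPM between 2 libraries of a group (right). Each point is 1 library or 1 pair of libraries. The divergent pairs lie at 0.366 to 0.451 on the left and 0.220 to 0.350 on the right, above the same-strand pairs at every position.

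Over all 6 libraries, the share of genes of divergent pairs called higher with pectin was that of all genes at no minimum fold. The share called lower was smaller. Of the 2697 genes tested, 248 (9.20%) were higher and 96 (3.56%) lower by edgeR's quasi-likelihood test (Benjamini-Hochberg adjusted p under 0.05 over all 9177 genes), where 9.20% of all tested genes were higher and 642 (7%) lower. At 2-fold or more 134 were higher and 73 lower, both smaller shares than the 558 and 504 of all 9177 tested genes. At 16-fold or more 33 were higher and 4 lower, beside 108 and 11 of all tested genes. The share lower was 1.84% in genes of pairs up to 250 bases apart, 2.88% over 250 and up to 500, 3.41% over 500 and up to 750 and 5.18% over 750 and up to 1000 bases, and 9.66% in divergent pairs more widely spaced than that. Of the tested genes of same-strand pairs, 10.1% were higher and 5.78% lower. The median log2 fold change was 0.057 over tested genes of divergent pairs and −0.0061 over all tested genes.

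The split between directions depended on the scaling of the libraries. Of the called genes of divergent pairs 72.1% were higher with TMM factors, 61.7% with upper-quartile factors and 45.2% with library size alone. Under library size alone, all genes had a median log2 fold change of −0.21. Library size alone gave 138 higher (5.12%) and 167 lower (6.19%), beside 5.94% and 10.3% of all tested genes. The share lower thus stayed under that of all genes in this setting, while which direction had more genes turned over. Counts also rested on single libraries, over all genes as in divergent pairs. There were 75 higher and 42 lower genes without control 2 (2.76% and 1.54%), beside 3.57% and 3.53% of all tested genes. Without pectin 1 there were 93 and 38 (3.42% and 1.40%), beside 4.51% and 3.30%. Without pectin 2 there were 73 and 24 (2.68% and 0.881%), beside 3.50% and 2.04%. There were 167 and 75 without control 3, 192 and 49 without pectin 3, and 250 and 113 without control 1. In each of these fits both shares were under those of all tested genes. Genes of divergent pairs took 22.8 ± 0.829% of exon reads without pectin and 23.9 ± 0.368% with it (SD, n = 3 each, exact permutation p = 0.1, two-sided, the smallest possible). The difference of 1.05 percentage points was 0.573 without control 1. Genes of same-strand pairs moved the same way, from 35.3% to 36.6%, or 1.22 points (exact permutation p = 0.1).

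When 1 partner of a divergent pair rose strongly, the other had mostly risen as well. Both partners were called higher in 36 of the 1257 pairs and both lower in 16, in opposite directions in 4, and in 213 pairs 1 partner was called. Of the 240 higher genes whose partner was tested, 72 (30%) had a higher partner, where 9.20% of all tested genes were higher, and of the 85 lower genes 32 (37.6%) had a lower partner, where 7% were lower. Of the 240 higher genes 4 had a lower partner, where 3.56% of the tested genes of divergent pairs were lower. In same-strand pairs both were higher in 49 of 1644 pairs, both lower in 17 and opposite in 15, and the shares with a like partner were 27.9% and 19.1%. In more widely spaced divergent pairs, the share was as high for lower genes up to 2000 bases and for higher genes beyond. It was smaller for the others. For higher and lower genes in turn, the shares were 16.5% and 39.2% over 1000 and up to 2000 bases, and 31.6% and 28% beyond. Of the tested genes of these wider pairs, 8.23% were higher and 9.66% lower. Among large rises, 33 genes of divergent pairs rose at least 16-fold. Of these, 30 (90.9%) had a partner called higher and 24 a partner that had risen at least 16-fold too. The 24 are both partners of 12 pairs, so such a pair counts at both of its genes. For same-strand neighbours, counted in the same way, the 38 positions held by genes that rose at least 16-fold had 18 higher partners (47.4%) and 10 at 16-fold. Of the 33 same-strand genes behind these positions, 19 were in no divergent pair. No test compares the 2 kinds of pair here, since pairs are not replicates and members of same-strand pairs recur.

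Over all 1257 pairs, the log2 fold changes of divergent partners had a Pearson r of 0.728 and a Spearman rho of 0.376, beside 0.395 and 0.208 in same-strand pairs. Large rises weighed on the Pearson value, which was 0.534 over the 1235 divergent pairs and 0.264 over the 1614 same-strand pairs in which both partners changed less than 16-fold. In the 988 divergent pairs with neither partner called, rho was 0.299, and in the 1196 same-strand pairs of that kind 0.123. The median distance between the partners' log2 fold changes was 0.36 in divergent and 0.48 in same-strand pairs.

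**Figure D2:**
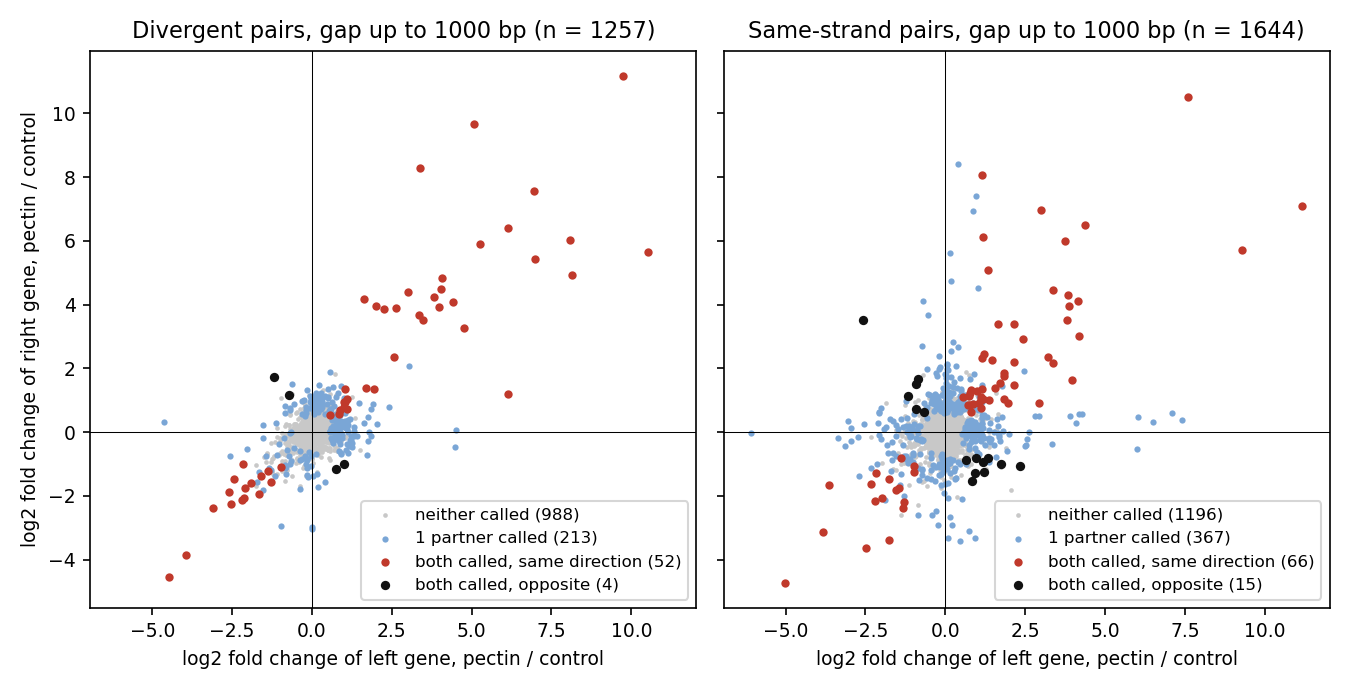
Fitted log2 fold change (pectin over control) of the left gene against that of the right gene, for divergent pairs (left, n = 1257) and same-strand pairs (right, n = 1644) up to 1000 bases apart, with 1 point per pair. Red points, with both partners called the same way (52 and 66 pairs), run along the diagonal on the left, while on the right strongly raised genes also lie along both axes; 2 genes of divergent pairs without reads in controls have fitted values that are no measured size.

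The 36 pairs with both partners higher lay on 25 contigs. LHCL01000003 held 4 of them, and LHCL01000005, LHCL01000012 and LHCL01000021 held 3 each. Some of these lay close together. The gaps began at bases 89535, 95411 and 102548 on LHCL01000012 and at 212957, 1236347, 1263377 and 1268664 on LHCL01000003. They began at 158663, 333229 and 343902 on LHCL01000021, and farther apart on LHCL01000005, at 155795, 516705 and 592889. In 13 pairs both partners averaged under 1 RPKM in control, and with pectin this held for 0 of the 36. In 29 both partners were at least 2-fold and in 12 at least 16-fold higher. The smaller of the 2 log2 changes had a median of 3.15 and the larger 4.08, and 22 pairs had partners within 2-fold of each other. Together these 72 genes took 0.383 ± 0.0497% of exon reads without pectin and 1.21 ± 0.119% with it (SD, n = 3 each), which describes genes chosen by that test. In 16 of the 36 pairs neither outer neighbour was called higher, in 15 pairs 1 was, and in 5 pairs both were, so that 25 of 69 outer neighbours (36.2%) were higher beside 9.20% of all tested genes. There were 21 such pairs without control 2, 20 without pectin 2, 24 without pectin 1, 28 without pectin 3, 29 without control 3 and 36 without control 1.

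The most abundant of the strongly raised pairs lay on LHCL01000005, with 890 bases from 516705 to 517594 between the partners. The left gene, ZTR_00179, with 1 exon, had 10.9, 6.21 and 6.46 RPKM in controls 1 to 3, and its values with pectin were 1164, 861 and 598. The right gene, ZTR_00164, with 5 exons, had 12.3, 7.26 and 8.04 RPKM in control and 445, 379 and 234 in pectin libraries. In both, control 1 was the highest control, pectin 1 the highest and pectin 3 the lowest pectin library, and the groups were far apart. The log2 fold changes were 6.97 (SE 0.40, edgeR adjusted p = 0.000148) and 5.44 (SE 0.35, edgeR adjusted p = 0.000197). The right gene rose less than the left, by 1.54 on the log2 scale (SE 0.22) in the test of the balance between partners (edgeR adjusted p = 0.00504).

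On LHCL01000118, partners 689 bases apart (41065 to 41753) had the same highest library in each group. The left gene, a short one of 360 bp, had 3.78, 5.39 and 13.7 RPKM in controls 1 to 3 and 253, 247 and 315 in pectin libraries. The right gene, of 3519 bp and 12 exons, had 2.83, 2.74 and 11.2 RPKM in control and 278, 289 and 351 in pectin libraries. Control 3 and pectin 3 were thus the highest of their groups in both, while libraries 1 and 2 of each group were in reversed order between the partners. Their log2 fold changes were 5.27 (SE 0.49) and 5.89 (SE 0.67), and without control 3 they were 6.02 and 6.93. The difference between the partners was not called (edgeR adjusted p = 0.116).

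Several pairs went from nearly no reads to moderate levels. Between 1236347 and 1236763 on LHCL01000003, the left gene had 0.03, 0 and 0.08 RPKM in control and 46.2, 25.2 and 21.9 in pectin libraries, and the right gene had 0 in all 3 controls and 41.2, 22.3 and 21.1 with pectin. The right gene was at least 103-fold higher, measured against 3 reads per control library, and the left had a log2 fold change of 9.75 (SE 0.63), which was 10.96 without control 3. A second pair on this contig, from 1268664 to 1269210, was uneven. Its left gene went from 0.30, 0.38 and 0.50 to 16.8, 11.3 and 8.79 RPKM, a log2 fold change of 5.07 (SE 0.40), and its right gene from 1 read in all controls together to 998 in pectin libraries, a ratio of 1142 with an exact 95% counting interval of 205 to 45167.

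LHCL01000012 held 2 of the 8 pairs with the largest joint rises, both at low levels in control. From 89535 to 89973, the left gene had 0.21, 0.04 and 0.04 RPKM in control and 14.7, 9.44 and 8.13 with pectin. The right gene had 0.38, 0.13 and 0.16 in control and 52.3, 37.1 and 24.1 with pectin. Their log2 fold changes were 6.95 (SE 0.54) and 7.56 (SE 0.48), and the left one was 8.02 without control 1 and 6.25 with total gene reads. From 95411 to 95707, the left gene had no read in any control and 25.9, 17.8 and 11.8 RPKM with pectin, at least 64.9-fold higher, and the right gene went from 2 to 106 reads, a ratio of 60.7 (interval 16.4 to 507). In all these 4 genes pectin 1 was the highest pectin library and pectin 3 the lowest.

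The remaining 2 of these 8 pairs were on LHCL01000005 from 592889 to 593680, at 0.03 to 0.48 RPKM in control and 12.5 to 38.6 with pectin, and on LHCL01000026 from 268347 to 268861, at 0 to 0.38 and 0.97 to 14.2 RPKM. On LHCL01000005 the partners rose by 8.08 and 6.04 on the log2 scale, 7.48 and 5.35 without pectin 1 and, for the right gene, 4.53 with total gene reads, and the balance between them was called as changed (edgeR adjusted p = 0.0304). On LHCL01000026 the left gene had 1 read in control and 85 with pectin (ratio 97.3, interval 17.0 to 3888) and the right gene 6 and 474 reads. The right gene rose by 6.42 on the log2 scale (SE 0.84), or 10.37 without control 1, which held all 6 control reads. All 16 genes of the 8 pairs kept their call in each alternative that tested them.

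The 16 pairs with both partners lower lay on 14 contigs, with a median of 15.7 RPKM in control and 2.55 in pectin libraries over their 32 genes. In 15 of them both partners were at least 2-fold lower. The smaller log2 change had a median of 1.71 in size, the larger 2.15, and in 15 pairs the partners changed within 2-fold of each other. The balance between partners was called as changed in 0 of these 16 (edgeR), with 2 at an unadjusted p under 0.05. In 8 pairs neither outer neighbour was lower, and 10 of 32 outer neighbours (31.2%) were, beside 7% of all tested genes. This count rested on single libraries, with 9 pairs without control 2, 6 without pectin 1, 6 without pectin 2, 10 without pectin 3 and 21 without control 1. It was 25 with library size alone and 30 with the replicate number as a block.

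In the pair that fell most, on LHCL01000027 from 329898 to 330616, the partners tracked each other across controls that were very unlike. The left gene, ZTR_03120, had 2.47, 13.2 and 31.8 RPKM in controls 1 to 3 and 0.67, 0.84 and 0.46 in pectin libraries. The right gene, ZTR_03092, had 2.49, 18.2 and 41.1 RPKM in control and 0.74, 0.93 and 0.79 in pectin libraries. Every pectin library was below every control, and control 3 was more than 10 times control 1 in both genes. Both have 1 exon, and their log2 fold changes were −4.48 (SE 0.92, edgeR adjusted p = 0.0182) and −4.55 (SE 0.96, edgeR adjusted p = 0.0201). Without control 3 they were −3.49 and −3.59. Both calls were lost without any one of the pectin libraries. There edgeR's adjusted p was 0.0593 to 0.0726 for the left gene and 0.0623 to 0.0819 for the right. The log2 fold changes in these fits were −4.26 to −4.69 for the left gene and −4.50 to −4.65 for the right.

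Other falling pairs showed the opposite order of controls. On LHCL01000021, from 117306 to 118104, the left gene had 27.1, 12.7 and 7.14 RPKM in controls 1 to 3 and 0.54 to 1.22 with pectin, and the right gene had 17.3, 9.38 and 3.49 in control and 0.37 to 0.75 with pectin. Control 1 was highest and control 3 lowest in both, and both kept their calls in every alternative that tested them, with log2 fold changes of −3.95 (SE 0.51) and −3.84 (SE 0.60). On LHCL01000019, from 294266 to 294951, the left gene had 12.3, 3.84 and 2.92 RPKM in control and 0.59 to 0.68 with pectin, and the right gene had 20.9, 6.87 and 4.88 in control and 1.73 to 1.91 with pectin. Their log2 fold changes of −3.09 and −2.37 were −2.33 and −1.64 without control 1. The left call was lost without pectin 2 and the right call without any one of the pectin libraries.

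Steadier falls were found on LHCL01000109 from 42718 to 43147 and on LHCL01000082 from 52023 to 52459. On LHCL01000109 the left gene had 32.6, 19.7 and 20.8 RPKM in control and 2.94, 3.83 and 4.6 with pectin, and the right gene had 14.4, 8.78 and 10.7 in control and 1.47, 2.20 and 2.68 with pectin. They fell by 2.52 (SE 0.25) and 2.26 (SE 0.26) on the log2 scale. On LHCL01000082 the left gene had a low level, 4.09, 2.09 and 1.98 RPKM in control and 0.44 to 0.64 with pectin, while the right gene had 33.1, 23.2 and 19.95 in control and 3.52 to 6.48 with pectin. The partners on LHCL01000082 averaged 2.72 and 25.4 RPKM in control, and their log2 fold changes were −2.18 (SE 0.31) and −2.13 (SE 0.26). The pair on LHCL01000008 from 75641 to 76557 had 2.40 to 11.3 RPKM in control and 0.54 to 2.02 with pectin. Its log2 changes were −2.13 and −2.06. Without control 1 the right gene was at −1.33, and both calls were lost without control 2 or any one of the pectin libraries.

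**Figure D3:**
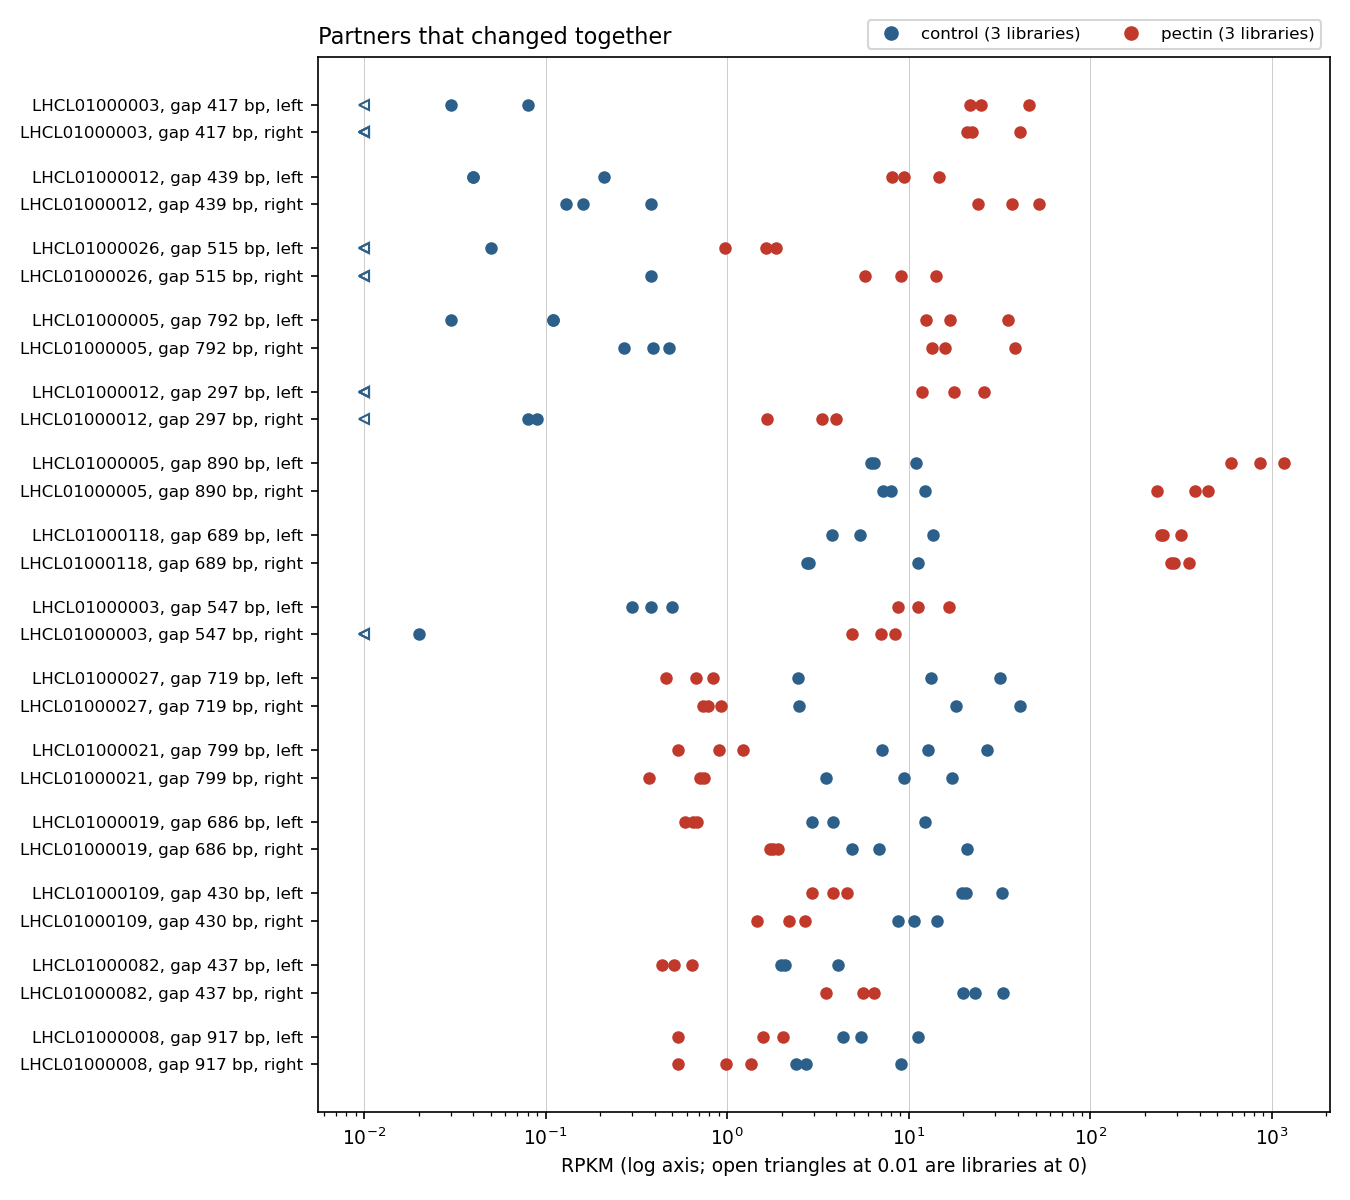
RPKM (log axis) in each of the 3 control and 3 pectin libraries for the 8 divergent pairs with the largest joint rise and the 6 with the largest joint fall, named by contig and by the bases between the partners; open triangles mark libraries at 0. In each gene the 3 pectin points lie apart from the 3 control points. The partners on LHCL01000027 are spread alike among controls, and in both partners on LHCL01000118 the highest control lies apart.

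Partners that changed in opposite directions were few, and the size of their changes was modest. The 4 pairs had smaller-of-the-2 changes with a median of 0.87 on the log2 scale, and the balance between partners was called in all 4. On LHCL01000003, from 546470 to 547376, the left gene rose from 322, 321 and 418 to 704, 677 and 545 RPKM while the right gene went from 8.29, 5.86 and 5.47 to 3.11, 2.63 and 3.12. On LHCL01000011, from 296352 to 296581, the left gene went from 28.4, 21.2 and 18.9 to 12.5, 13.0 and 12.2 RPKM and the right gene from 61.9, 39.6 and 49.7 to 112, 108 and 83.7. The groups did not overlap in any of these 4 genes. The changes in the ratio of right to left were −1.99 (SE 0.31, edgeR adjusted p = 0.00713) and 1.86 (SE 0.23, edgeR adjusted p = 0.00268) on the log2 scale.

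On LHCL01000013, from 340586 to 340884, the left gene went from 101 to 116 RPKM in control to 149 to 184 with pectin, and the right gene from 64.7 to 98.7 to 27.4 to 36.7. The fourth pair, on LHCL01000027 from 333627 to 334626, had the largest allowed distance and lay next to the strongly falling pair of that contig. Its left gene fell from 2.84 to 3.72 RPKM in control to 1.00 to 1.80 with pectin, and its right gene rose from 1.08 to 2.14 to 3.74 to 5.87. As gene calls these 4 pairs were fragile, since 1 or both partners of each lost the call when some single library was left out, and the left gene on LHCL01000013 lost it with library size alone (edgeR adjusted p = 0.0536). Without control 2, pectin 1 or pectin 2 there were 0 such pairs (edgeR), with 10, 10 and 9 at an unadjusted p under 0.05 in both partners. There were 3 without control 3, 1 without pectin 3, 9 without control 1, 7 with DESeq2 and 10 with the replicate number as a block.

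In 213 pairs 1 partner was called and the other not, which does not by itself show that they differed. The partners were therefore tested against each other in 1 model per pair, with library as a block. The balance between partners, the ratio of right to left, was called as changed in 86 of 1256 divergent pairs (6.85%), where 11.0% of the 2908 pairs of both kinds were. Of the 213 pairs, 54 were among these, 41 of 164 with a higher gene and 13 of 49 with a lower one. In the 164 pairs the called gene had a median log2 fold change of 0.90 and its partner 0.13, with the same sign in 108 (65.9%). In the 49 pairs these values were −1.12 and −0.32, with the same sign in 39 (79.6%). Over all 1257 divergent pairs with both partners tested, the sign was the same in 797 (63.4%), near the share in the 164 pairs. A further 9 of the 86 were pairs in which both partners rose, by unequal amounts, 4 had opposite calls, and in 19 neither gene was called alone. Changed balances had a median size of 1.43 and ran up to 4.95 on the log2 scale.

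Some 1-sided responses were large. On LHCL01000022, with 768 bases from 272978 to 273745, the left gene had 12.2, 4.79 and 5.16 RPKM in control and 249, 75.4 and 104 with pectin, while the right gene had 15.4, 8.43 and 7.60 in control and 7.04, 5.61 and 7.73 with pectin. The left gene rose by 4.47 on the log2 scale (SE 0.57), or 3.74 without pectin 1, and the balance changed by −4.77 (SE 0.41, edgeR adjusted p = 0.000604). On LHCL01000056, from 177507 to 178413, the left gene fell from 15.4, 11.0 and 4.68 to 0.41, 0.21 and 0.47 RPKM, a log2 change of −4.65 (SE 0.51). Its right partner had 42.6, 55.2 and 37.8 RPKM in control and 40.1, 61.5 and 51.5 with pectin, with overlapping groups. The balance changed by 4.84 (SE 0.52, edgeR adjusted p = 0.00193).

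In 3 more pairs the called partner changed by less. On LHCL01000015, from 400614 to 401326, the right gene rose from 80.9, 78.5 and 130 to 253, 271 and 224 RPKM, while the left had 3.97 to 5.47 in control and 2.59 to 3.26 with pectin and was not called (edgeR adjusted p = 0.143). It was called lower without control 1 (edgeR adjusted p = 0.0450) and with total gene reads (edgeR adjusted p = 0.04998), which would make the pair an opposite one. On LHCL01000028, from 304734 to 305558, the left gene went from 23.0 to 30.9 RPKM in control to 45.1 to 61.2 with pectin, beside a right gene at 11.5 to 14.2 and 8.09 to 11.2. Its call was lost without pectin 2 (edgeR adjusted p = 0.0563). On LHCL01000157, from 1015 to 1961, both genes had their highest control value in control 1, at 56.2 and 37.4 RPKM, but with pectin the left gene had 39.1 to 47.2 RPKM and the right gene 5.57 to 6.72. The log2 fold change of the right gene was −1.55, or −0.96 without control 1, and its call was lost without control 2 or any one of the pectin libraries. The left gene was called higher without control 1 (edgeR adjusted p = 0.0258).

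**Figure D4:**
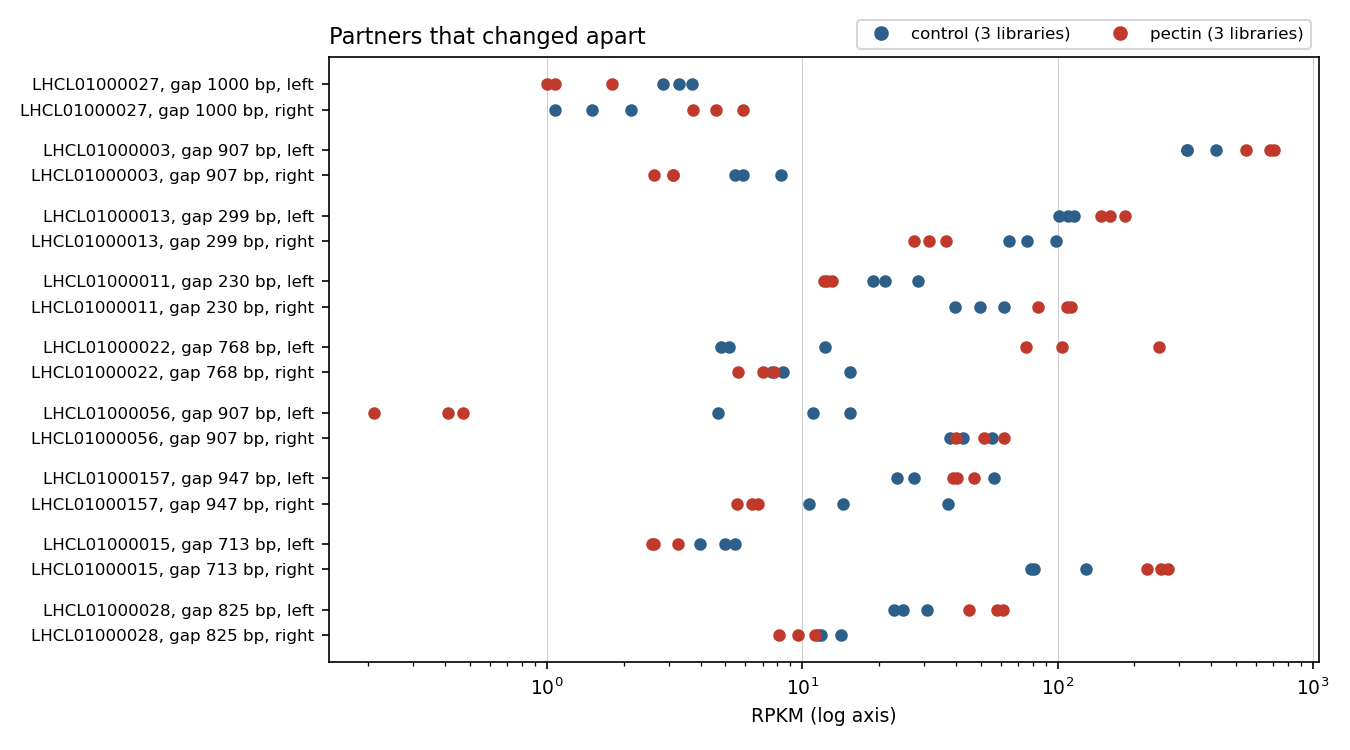
RPKM (log axis) in each of the 3 control and 3 pectin libraries for the 4 divergent pairs with opposite calls and for the 5 pairs with 1 called partner that had the lowest p for a changed balance. In the first 4 pairs the pectin points of 1 partner lie above and those of the other below the controls; in LHCL01000056 the left gene falls to 0.21 to 0.47 RPKM while the points of the right gene overlap.

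Unequal change was called in a smaller share of divergent than of same-strand pairs beyond 250 bases, a comparison that carries no test here. The balance was called as changed in 234 of 1652 same-strand pairs (14.2%). By distance, the share was 4.55% of 484 divergent and 12.8% of 476 same-strand pairs over 250 and up to 500 bases, 7.22% of 388 and 14.6% of 637 over 500 and up to 750 bases, and 10.5% of 304 and 16.3% of 491 over 750 and up to 1000 bases. Up to 250 bases calls were too few to order the kinds, with 4 of 80 divergent and 0 of 48 same-strand pairs (edgeR, 12 and 8 at an unadjusted p under 0.05) and median balance changes of 0.29 and 0.30 on the log2 scale. A ratio within a library does not depend on its scaling, and library size alone gave the same 86 and 234. With at least 600 reads in each partner the shares were 8.56% and 15.1%. The number of divergent pairs was 24 without control 2, 31 without pectin 1, 23 without pectin 2, 57 without control 3, 60 without pectin 3 and 122 without control 1, and the share was under that of same-strand pairs in each of the 6 fits with a left-out library. A smaller share of the genes of divergent pairs was also called singly, and the part of this in the lower share was not tested.

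The likeness of the pectin change fell only slowly with distance in divergent pairs. The Spearman correlation of the partners' log2 fold changes was 0.454 up to 250 bases, 0.356, 0.398 and 0.369 in the next bins up to 1000, 0.329 over 1000 and up to 2000 and 0.298 beyond. In same-strand pairs it was 0.491 in the 47 pairs up to 250 bases and 0.266, 0.211 and 0.126 in the next bins up to 1000 bases, then 0.217 up to 2000 and 0.121 beyond. Reads outside annotated exons are not used by the gene test. Their log2 change had a rho of 0.297 between the partners of 1099 divergent pairs and 0.209 in 1427 same-strand pairs with at least 60 such reads in each partner. For divergent pairs this rho did not fall with distance, at 0.285, 0.292, 0.283 and 0.320 in the 4 bins up to 1000 bases. The share of gene reads outside exons was 17.5 ± 1.95% without pectin and 15.3 ± 1.01% with it for genes of divergent pairs (SD, n = 3 each, exact permutation p = 0.2, two-sided), and all other genes had 17.8 ± 1.83% and 15.01 ± 0.809% (p = 0.1 by the same exact test).

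**Figure D5:**
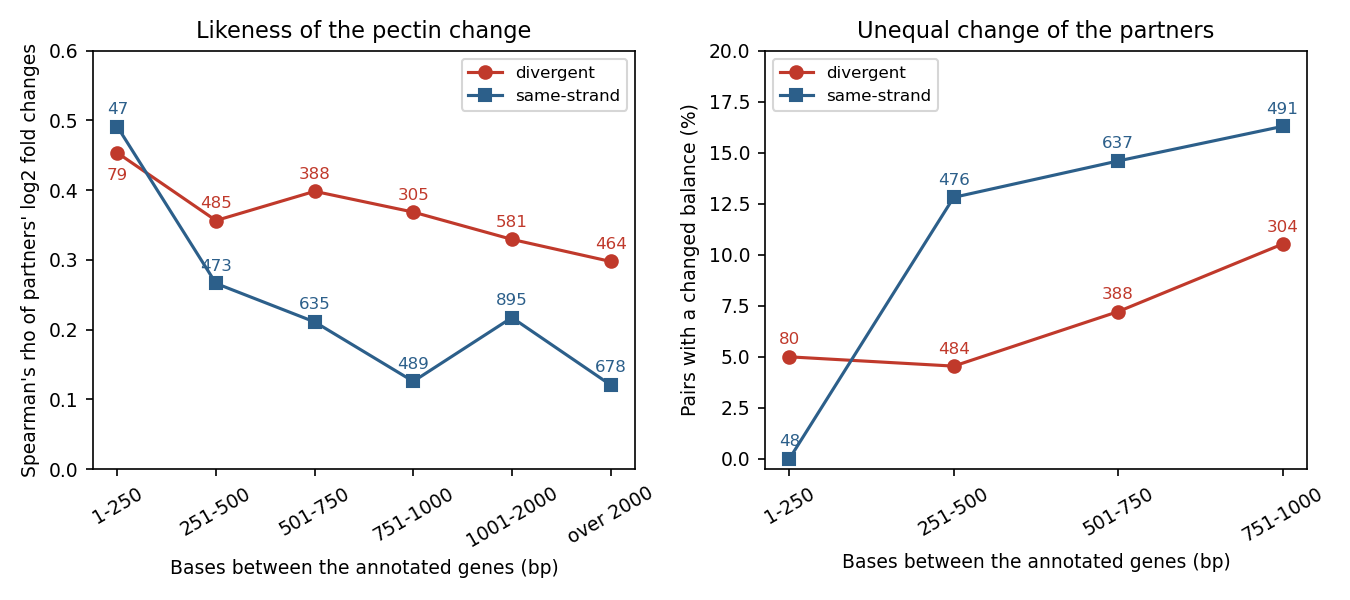
Spearman's rho of the partners' log2 fold changes (left) and the share of pairs with a changed balance between partners (right) by the bases between the annotated genes; small numbers give the pairs in each bin. Divergent pairs lie above same-strand pairs on the left and below them on the right beyond 250 bases; the bin of 1 to 250 bases holds 47 to 80 pairs of a kind and 4 changed balances in all.

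Pairs of 2 abundant genes included both steady and raised ones. On LHCL01000013, from 402908 to 403685, short genes of 411 and 312 bp had 1885 to 2240 and 2270 to 2738 RPKM in control and 1929 to 2098 and 2306 to 2498 RPKM with pectin, with overlapping groups in both. On LHCL01000072, from 46576 to 47251, the levels were 956 to 1437 and 1878 to 2635 in control and 1423 to 1572 and 2572 to 2862 with pectin, and neither gene was called. On LHCL01000041, from 28130 to 28436, the left gene had 517, 514 and 812 RPKM in control and 1231, 1271 and 1069 with pectin, and the right gene had 581, 610 and 847 in control and 1372, 1309 and 1137 with pectin. Control 3 was the highest control and pectin 3 the lowest pectin library in both partners. They rose by 1.09 (SE 0.26) and 1.04 (SE 0.24) on the log2 scale, though both calls were lost without control 2, pectin 1 or pectin 2, and the left one also without pectin 3 (edgeR adjusted p = 0.0504). On LHCL01000049, from 130370 to 130881, the left gene rose from 761 to 988 RPKM in control to 1349 to 1676 with pectin, while the right had 403 to 564 and 386 to 616. The call of the left gene was lost without control 2, pectin 1 or pectin 2. The balance of that pair was not called (edgeR adjusted p = 0.252).

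In the 3 closest pairs with both partners tested, the balance changed in 2, while over all 80 tested pairs up to 250 bases apart it changed in 4, and the 79 pairs with both genes tested had a median difference of 0.31 between log2 fold changes. With 70 bases from 1467885 to 1467954 on LHCL01000001, the left gene had 324, 326 and 422 RPKM in control and 675, 703 and 600 with pectin, while the right gene had 35.9, 37.2 and 36.9 in control and 33.8, 38.9 and 38.1 with pectin. The balance changed by −0.88 on the log2 scale (SE 0.22, edgeR adjusted p = 0.0391). With 91 bases from 66439 to 66529 on LHCL01000031, the left gene went from 157 to 273 RPKM in control to 385 to 466 with pectin beside 10.3 to 15.3 and 8.37 to 12.5 for the right gene. The balance changed there by −1.51 (SE 0.29, edgeR adjusted p = 0.0183). Both left genes lost their calls as single genes without control 2, pectin 1 or pectin 2. The third of these pairs, with 101 bases on LHCL01000014 from 450158 to 450258, had 21.9 to 35.8 and 4.06 to 7.09 RPKM over all libraries, and neither gene was called. At the limit of distance, the 2 pairs nearest inside, with 1000 bases, had mean levels of 0.197 to 4.74 RPKM per group and the 2 nearest outside it 0.200 to 2.92 RPKM.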

How the data were processed

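Per the labels, RNA was extracted, poly-T purified and sequenced as paired ends. Which aligner, counter, strand setting and build were used is not given in the sources used here. Per the file headers, the authors deposited read counts per gene for exons, introns and whole genes, and RPKM values, which served as levels here. Without known strand, reads of a gene and of antisense transcription from its neighbour cannot be told apart.

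The deposited exon read counts entered edgeR 4.0.16 under R 4.3.3 (quasi-likelihood, robust, TMM, filterByExpr), which kept 9177 genes and left out 2149, with Benjamini-Hochberg adjustment over all and calls under 0.05. The common coefficient of variation was 26.7%. Balance between partners was tested with edgeR on 2908 pairs with at least 60 reads in each partner, as an interaction of side and group with library as a block. Log2 CPM used a prior count of 2. Fold changes are fitted values; against genes without control reads, bounds use 3 reads per library, and intervals cover counting error only. DESeq2 1.42.0 was an alternative. The gene and balance tests were run on simulated counts with 1 coefficient of variation for all genes and nothing shared by partners, unlike the data. Of 50 changes of 2-fold, 11 were recovered in genes and 9 in balances. Of 50 changes of 4-fold, 50 and 42 were. Smaller changes of balance can thus go uncalled. Summaries used Python 3.11.15, scipy 1.17.1 and matplotlib 3.10.9.

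The pairs, alternatives and rule for named pairs were chosen with earlier results of these data known. The rule took the 8 pairs with the largest joint rise, 6 with the largest joint fall, 4 with opposite calls, 5 with 1 called partner and the lowest p for balance, the 4 most abundant, the 3 closest with both partners tested and those at the limit of distance. Gene lists could not be applied, since tags have no names here. No 2 libraries of a group agreed within sampling noise (lowest chi-square 33.9 per degree of freedom).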

Additional observations from a re-analysis of the deposited data

How the results depend on the processing

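No called gene among the named pairs changed direction in any alternative (0 of 678 values), 27 of these 46 genes kept their call in all alternatives that tested them, and 60 values lost it. In 3 values an uncalled named gene gained a call. Counts moved more. Genes of divergent pairs numbered 248 higher and 96 lower, against 138 and 167 with library size only, 161 higher with a filter of 10 CPM, 163 lower with DESeq2, 134 higher at 2-fold or more, 111 and 32 with a gap up to 500 bp, and 73 to 250 and 24 to 113 without 1 library. Divergent pairs with both higher, both lower or opposite (36, 16 and 4) numbered 20 higher and 8 lower with 10 CPM, 25 lower with library size only, 27 lower and 7 opposite with DESeq2, 1 opposite at 2-fold, 14, 7 and 2 up to 500 bp, and 20 to 36, 6 to 21 and 0 to 9 without 1 library, where opposite pairs at an unadjusted p under 0.05 numbered 9 to 24. Same-strand pairs (49, 17 and 15) numbered 30 higher and 29 lower with library size only, 25, 10 and 9 with 10 CPM, 31 lower and 25 opposite with DESeq2, 5 opposite at 2-fold, 17, 7 and 5 up to 500 bp, and 19 to 50, 4 to 21 and 1 to 18 without 1 library. Changed balances (86 and 234) numbered 24 and 57 up to 500 bp, and 23 to 122 and 80 to 307 without 1 library. The Spearman correlation of the partners' log2 fold changes (0.376 divergent, 0.208 same-strand) was 0.308 and 0.164 with 10 CPM, 0.289 for same-strand pairs up to 500 bp, and 0.332 to 0.403 and 0.174 to 0.225 without 1 library. The share of exon reads, 1.05 points higher with pectin, was 0.573 to 1.30 points higher without 1 library. A shorter gap and a stricter filter leave fewer pairs and genes; otherwise the cause was not tested.

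Replicate numbers are shared by both groups but are not said to mark pairs, so they were not taken as pairs. The deviations of libraries 1, 2 and 3 from their group means correlated across groups at 0.478, 0.0732 and 0.432. Whether libraries of 1 number share an effect was not tested, and the block is given as an alternative. With the replicate block 344 genes of divergent pairs were higher and 179 lower. Over all tested genes 1163 were then higher and 1060 lower, against 844 and 642 without it. With the block 53 divergent pairs were both higher, 30 both lower and 10 opposite, beside 34 same-strand pairs both lower and 30 opposite. With 3 libraries a group and a common coefficient of variation of 26.7%, small changes may be missed, and genes with few control reads have fold changes limited by depth.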
